A study of Homo sapiens with 22 samples.

Results

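The genes described here encode the integrin subunits that bind fibronectin, collagen, laminin and the RGD (arginine-glycine-aspartate) motif of matrix proteins. The set was given as a list of 9 symbols, ITGA2, ITGA3, ITGA5, ITGAV, ITGB1, ITGB3, ITGB5, ITGB6 and ITGB8, and all 9 were found among the 17165 genes of the deposited table. The study sequenced polyadenylated RNA of PC9 cells, an established line of human non-small cell lung cancer that grows on mutant EGFR (the epidermal growth factor receptor), and of lines derived from it. It asked how cells become resistant to drugs that block EGFR. Parental PC9 cells were treated for 24 h with vehicle, with gefitinib, a reversible EGFR inhibitor, or with WZ4002, an inhibitor that binds mutant EGFR covalently. The derivatives PC9-GR2 (GR2 below), PC9-GR3 (GR3 below) and PC9 WZ4002-tolerant received vehicle or WZ4002, and PC9 gefitinib-tolerant cells received vehicle or gefitinib. That gave 11 groups of 2 libraries each. The labels give both drugs at 1 mM, a unit that may be a slip for micromolar and could not be checked from the files. They do not say which EGFR alleles the derivatives carry or whether a derivative was 1 clone, nor whether the 2 libraries of a group came from separate cultures. The spread behind every p-value here is thus that between library pairs, pooled for each gene over all 11 groups, and it may be technical only. The standard error of a gene is therefore the same in every drug comparison and is not the spread of that population alone.

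An integrin is a pair of 1 alpha and 1 beta chain that crosses the plasma membrane, holds the cell to its matrix and passes the state of that attachment to kinases inside the cell. The beta-1 chain pairs with many alpha chains: with alpha-2 it binds collagen, with alpha-3 laminin, and with alpha-5 fibronectin. The alpha-v chain pairs with beta-1, beta-3, beta-5, beta-6 or beta-8, which read the RGD motif of vitronectin, osteopontin, fibronectin or the latency peptide of TGF-beta. In epithelium the alpha-v/beta-6 and alpha-v/beta-8 pairs are known for releasing active TGF-beta.

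The promoters of 4 subunits are shown because these genes moved differently: ITGA2 and ITGA5 fell under drug in every population tested, ITGB8 rose in every population, and ITGB6 fell in 1 population and rose in another. RefSeq promoters of build GRCh38.p14 were matched for 7 of the 9 genes, and each window runs from 250 bases before to 50 bases after a transcription start. Capitals mark matches on either strand to 4 motifs: TGANTCA of AP-1 factors, CCGGAAG of ETS factors, GGGCGG of SP1-like factors and GGAATG of TEAD factors. None of the motif letters overlap in the sequences printed. The ITGA2 promoter lies at chr5:52989102-52989401 on the plus strand, that of ITGA5 at chr12:54419217-54419516 on the minus strand, that of ITGB6 at chr2:160200223-160200522 on the minus strand and that of ITGB8 at chr7:20330650-20330949 on the plus strand.
ITGA2: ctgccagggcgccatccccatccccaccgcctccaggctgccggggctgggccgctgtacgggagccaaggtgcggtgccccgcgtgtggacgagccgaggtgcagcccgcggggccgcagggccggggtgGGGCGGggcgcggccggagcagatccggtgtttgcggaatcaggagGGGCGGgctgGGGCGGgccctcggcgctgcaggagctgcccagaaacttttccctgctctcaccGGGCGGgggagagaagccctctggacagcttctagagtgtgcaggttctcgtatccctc
ITGA5: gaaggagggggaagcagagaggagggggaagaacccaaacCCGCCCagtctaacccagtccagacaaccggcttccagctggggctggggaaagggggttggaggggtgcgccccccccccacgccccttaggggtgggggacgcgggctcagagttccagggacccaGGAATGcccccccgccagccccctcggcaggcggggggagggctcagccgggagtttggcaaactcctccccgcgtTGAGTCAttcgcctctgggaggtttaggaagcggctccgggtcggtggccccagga
ITGB6: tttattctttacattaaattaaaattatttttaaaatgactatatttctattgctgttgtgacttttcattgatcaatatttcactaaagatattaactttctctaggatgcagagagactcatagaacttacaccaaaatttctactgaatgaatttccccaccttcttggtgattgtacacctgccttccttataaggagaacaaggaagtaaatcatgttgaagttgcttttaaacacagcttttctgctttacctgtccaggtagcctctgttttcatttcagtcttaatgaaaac
ITGB8: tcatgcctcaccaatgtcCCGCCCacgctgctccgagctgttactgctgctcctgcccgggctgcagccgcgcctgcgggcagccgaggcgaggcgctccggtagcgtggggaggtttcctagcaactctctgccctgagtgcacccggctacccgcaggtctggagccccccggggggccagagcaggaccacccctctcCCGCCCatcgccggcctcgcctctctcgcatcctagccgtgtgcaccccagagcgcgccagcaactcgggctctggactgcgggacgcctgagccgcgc
The ITGA2 window held 4 copies of GGGCGG and the ITGB8 window 2, and neither held any of the other 3 motifs. The ITGA5 window held 1 copy each of the AP-1, SP1-like and TEAD motifs. The ITGB6 window held none of the 4, and its GC content was 31.7%, beside a median of 58.7% over all promoters. GC content was 72.7% in the ITGA2 window, 69.3% in that of ITGA5 and 71.7% in that of ITGB8. Among 35116 promoters of the same length, 7.71% held TGANTCA at least once, 10.3% CCGGAAG, 45% GGGCGG and 14% GGAATG. These shares do not count copies and were not matched for GC content. A match describes the letters of a window and is no evidence of binding, and the motifs were chosen after the gene values had been seen.

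Values are counts-per-million (CPM). Depth was estimated at 23.6 to 49.6 M reads per library from the smallest step between values, and the listed genes held 54.6% to 64.2% of each library's CPM total. As a check of drug action, DUSP6, an ERK phosphatase gene that EGFR signalling keeps on, fell in all 6 drug comparisons (-7.15 to -3.09 on the log2(CPM + 1) scale). All 7 epithelial markers sought were present (EPCAM, CDH1, CLDN4 and 4 keratins), with summed levels of 2960 to 8945 CPM per library. Leukocyte markers summed to 0.23 to 11.1 CPM (2 of 7 present), endothelial markers to 4.85 to 38.2 CPM (4 of 5 present), fibroblast markers to 5.39 to 20.2 CPM (4 of 7 present), and platelet markers to 1.11 to 7.85 CPM (2 of 5 present). Some markers moved with the comparisons, as did many genes. Of all 15485 genes tested, 45.3% were called with gefitinib and 47.5% with WZ4002 in parental cells. The share with drug was 55.7% in GR2, 22% in GR3, 28.7% in gefitinib-tolerant and 32.6% in WZ4002-tolerant cells. With vehicle, against parental cells, it was 16.7% in GR2, 20.8% in GR3, 19% in gefitinib-tolerant and 18.4% in WZ4002-tolerant cells. Of 7 epithelial markers, 4 were called higher and 1 lower with either drug in parental cells, 5 higher and 1 lower in GR2, 5 higher in GR3 and 2 higher in each tolerant line. Of the 2 leukocyte markers (CD14 and CSF1R), 2 were higher with drug in GR2 and 1 in each other drug comparison. Of 2 endothelial markers tested, 1 was higher and 1 lower with either drug in parental cells, 1 higher in GR2, 1 higher in GR3 and 2 higher in gefitinib-tolerant cells. Of the 2 platelet markers (GP1BA and PPBP), 1 was higher with drug in parental cells and GR2, and 1 was higher in both tolerant lines with vehicle. With vehicle, 4 epithelial markers were lower in GR2 and 4 in GR3 than in parental cells, and 1 in WZ4002-tolerant cells. The part of these markers in the results was not tested. In bulk RNA, fewer cells that express a gene and less RNA per cell cannot be told apart. Paired libraries differed most in GR3 vehicle, with a mean chi-square of 87.5 per gene, and least in GR2 vehicle, with 3.48. Both GR2 vehicle libraries stood in the same run of columns as deposited, whereas the libraries of each other group stood in different runs. The value of 3.48 is thus a spread within a run, unlike the others. The GR2 WZ4002 libraries stood in other runs than the GR2 vehicle libraries, so drug and run cannot be told apart within GR2. No label calls a run a batch.

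Drug treatment lowered 4 of the 9 subunits in all 6 drug comparisons (ITGA2, ITGA3, ITGA5 and ITGB5) and raised ITGB8 in all 6. ITGB1 fell in 3 of the 6, ITGB6 fell in GR3 and rose in GR2, and ITGAV and ITGB3 passed the test in none. The share of all genes called in the same direction in all 6 was not computed, so these counts have no background beside them. Some of the calls were lost in other fits, among them those of ITGA5 and ITGB5 in both tolerant lines and of ITGB6 in GR2, as given gene by gene. The parental comparisons share their vehicle libraries. All values below come from limma fitted to log2(CPM + 1) of 15485 genes in all 22 libraries, with calls at an adjusted p under 0.05. In parental cells 6 of the 9 subunits were called under gefitinib, 5 lower and 1 higher, beside 45.3% of all genes tested (21.8% lower and 23.5% higher). Under WZ4002 the parental count was again 5 lower and 1 higher, beside 47.5% of all genes (22.3% lower and 25.1% higher). In GR2 cells 5 were lower and 2 higher, beside 55.7% (28.3% lower and 27.4% higher), and in GR3 cells 5 were lower and 1 higher, beside 22% (9.87% lower and 12.1% higher). In gefitinib-tolerant cells 4 were lower and 1 higher, beside 28.7% (13.6% lower and 15.2% higher). In WZ4002-tolerant cells 4 were lower and 1 higher, beside 32.6% (15.6% lower and 17% higher). The 2 drugs thus moved a large share of all genes, and the identity and size of each subunit's change are given gene by gene.

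**Figure D1:**
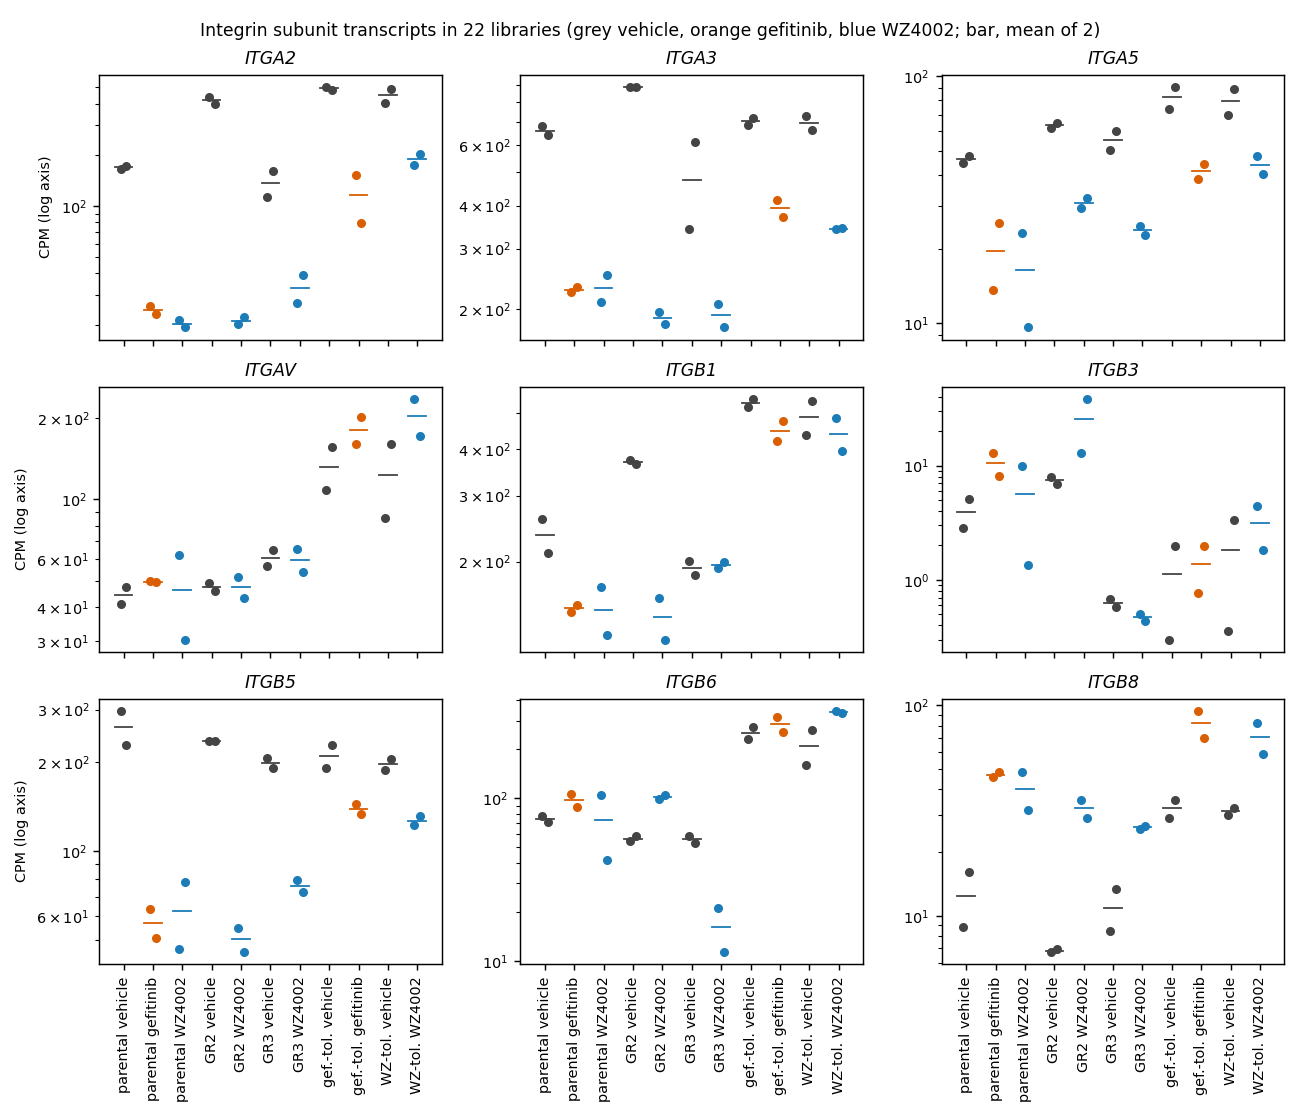
CPM on a log axis of the 9 subunits in each of 22 libraries, with 2 points per group and a bar at their mean; grey, vehicle; orange, gefitinib; blue, WZ4002. ITGA2 under vehicle ranged from 112 to 503 CPM and under drug from 19.2 to 203 CPM, whereas ITGB8 was higher under drug within each population.

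ITGA2, the collagen-binding alpha-2 chain, had the largest estimated fall of the 9 genes in each of the 6 drug comparisons. In parental cells it measured 164 and 172 CPM under vehicle, 25.7 and 23.0 CPM under gefitinib, and 21.3 and 19.2 CPM under WZ4002. In GR2 cells it went from 439 and 399 CPM under vehicle to 20.1 and 22.1 CPM under WZ4002. In every population both drug-treated libraries lay below both vehicle libraries. On the log2 scale ITGA2 fell by 2.74 ± 0.24 (SE) under gefitinib in parental cells (adjusted p = 1.24e-06) and fell by 2.99 ± 0.24 under WZ4002 (adjusted p = 5.53e-07). The fall in GR2 was 4.25 ± 0.24 (adjusted p = 5.81e-09), a 19.9-fold difference of mean CPM. In GR3 cells the 2 vehicle libraries held 112 and 161 CPM and the 2 WZ4002 libraries 26.6 and 39.1 CPM, a fall by 2.02 ± 0.24 (adjusted p = 4.55e-05). Each drug-treated library of the tolerant lines lay above every other drug-treated library: gefitinib-tolerant cells held 152 and 79.8 CPM with gefitinib, against 503 and 480 CPM with vehicle. WZ4002-tolerant cells held 174 and 203 CPM with WZ4002, against 405 and 488 CPM with vehicle. The falls there were 2.15 ± 0.24 (adjusted p = 8.74e-05) and 1.24 ± 0.24 (adjusted p = 0.00174).

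ITGA3, the laminin-binding alpha-3 chain, had the highest level per kb of exon of the 9 genes in parental vehicle, at 135 ± 5.75 CPM per kb (SD, n = 2). Its CPM in parental cells was 681 and 642 under vehicle, 223 and 231 under gefitinib, and 210 and 252 under WZ4002. The falls were 1.54 ± 0.19 (adjusted p = 2.14e-05) and 1.52 ± 0.19 (adjusted p = 2.11e-05) on the log2 scale. In GR2 cells ITGA3 went from 889 and 888 CPM to 196 and 181 CPM, a fall by 2.23 ± 0.19 (adjusted p = 1.86e-07). The vehicle libraries of GR3 stood apart from each other at 341 and 612 CPM, and both were above the WZ4002 libraries at 207 and 177 CPM. The fall in GR3 was 1.25 ± 0.19 (adjusted p = 0.00034), and 0.83 without vehicle replicate 2 (adjusted p = 0.00128). In gefitinib-tolerant cells it went from 689 and 721 to 416 and 371 CPM, a fall by 0.84 ± 0.19 (adjusted p = 0.00514) that missed the threshold without gefitinib replicate 2 (a difference of -0.76, adjusted p = 0.0697). In WZ4002-tolerant cells it went from 728 and 663 to 342 and 344 CPM, a fall by 1.02 ± 0.19 (adjusted p = 0.00143).

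ITGA5, the alpha-5 chain of the main fibronectin receptor, was lower under drug in each population, with larger standard errors than ITGA2 or ITGA3. In parental cells it measured 44.7 and 47.6 CPM under vehicle, 13.7 and 25.5 CPM under gefitinib, and 23.3 and 9.62 CPM under WZ4002. The drug-treated libraries differed from each other by more than the vehicle pair did, yet all lay below it. The fall was 1.26 ± 0.30 with gefitinib (adjusted p = 0.00302) and 1.55 ± 0.30 with WZ4002 (adjusted p = 0.000627). It was 1.02 ± 0.30 in GR2 (61.9 and 64.9 to 29.5 and 32.1 CPM; adjusted p = 0.00845; 1.61 with a term for the order of columns in the table) and 1.17 ± 0.30 in GR3 (50.2 and 59.9 to 24.9 and 22.7 CPM; adjusted p = 0.011). In the tolerant lines ITGA5 stood at 73.9 and 91.0 CPM (gefitinib-tolerant) and 69.7 and 88.9 CPM (WZ4002-tolerant) with vehicle. With drug it stood at 38.6 and 44.1 CPM and at 47.5 and 40.2 CPM, falls by 0.97 ± 0.30 (adjusted p = 0.0232) and 0.83 ± 0.30 (adjusted p = 0.0421). Both calls in tolerant lines were lost when any 1 of the 4 libraries concerned was left out (adjusted p 0.0829 to 0.114 and 0.086 to 0.194), and the second also when no gene was filtered out (adjusted p = 0.0551) or with the term for column order (adjusted p = 0.0738). The parental gefitinib call was lost without gefitinib replicate 1 (-0.83, adjusted p = 0.0616). The GR3 call was lost without vehicle replicate 2 (-1.05, adjusted p = 0.0525) or WZ4002 replicate 2 (-1.11, adjusted p = 0.07), and the parental WZ4002 value was -0.95 (adjusted p = 0.0104) without WZ4002 replicate 2.

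ITGAV, the alpha-v chain common to the RGD receptors, was not called in any of the 6 drug comparisons. Its CPM in parental cells was 41.2 and 47.4 with vehicle, 49.8 and 49.4 with gefitinib, and 62.2 and 30.3 with WZ4002. The log2 differences were 0.16 for gefitinib (95% interval -0.47 to 0.80) and -0.02 for WZ4002 (-0.66 to 0.62). GR2 (49.1 and 45.9 against 51.8 and 43.3 CPM) and GR3 (56.7 and 64.8 against 65.6 and 53.7 CPM) showed overlapping libraries. In the tolerant lines the drug-treated libraries lay above the vehicle libraries, at 160 and 201 against 108 and 156 CPM in gefitinib-tolerant cells and at 235 and 172 against 85.1 and 160 CPM in WZ4002-tolerant cells. Those differences, 0.46 (-0.17 to 1.10, adjusted p = 0.258) and 0.78 (0.14 to 1.42, adjusted p = 0.0579), missed the threshold, and the second passed it without vehicle replicate 2 (1.23, adjusted p = 0.0129).

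ITGB1, the beta-1 chain that alpha-2, alpha-3 and alpha-5 all need, fell in 3 of the 6 comparisons. It went from 260 and 211 CPM with vehicle to 147 and 153 CPM with gefitinib and 171 and 127 CPM with WZ4002, falls by 0.64 ± 0.17 (adjusted p = 0.0056) and 0.67 ± 0.17 (adjusted p = 0.0042). In GR2 it went from 374 and 364 to 160 and 124 CPM, a fall by 1.39 ± 0.17 (adjusted p = 5.69e-06). In parental cells and in GR2, no drug-treated library overlapped the vehicle libraries. In GR3 the 4 libraries held 201 and 184 CPM with vehicle and 192 and 199 CPM with WZ4002, a difference of 0.02 (95% interval -0.33 to 0.38, adjusted p = 0.935). The tolerant lines held 518 and 545 against 419 and 474 CPM (gefitinib; -0.25, -0.61 to 0.10) and 435 and 539 against 484 and 394 CPM (WZ4002; -0.15, -0.50 to 0.20). Both parental calls were lost without vehicle replicate 1 (-0.49 and -0.51, adjusted p = 0.0798 and 0.063), and the WZ4002 call also without WZ4002 replicate 2 (-0.45, adjusted p = 0.0668). ITGB1P1, a pseudogene of ITGB1 listed at a median of 14.4 CPM beside 235 CPM for ITGB1, may share reads with it, so the ITGB1 values are uncertain by that share.

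ITGB5, the beta-5 chain of a vitronectin receptor, was the beta subunit with falls in all 6 comparisons. Parental cells went from 298 and 228 CPM with vehicle to 63.3 and 50.8 CPM with gefitinib and 46.4 and 78.4 CPM with WZ4002. GR2 went from 236 and 235 to 55.0 and 45.6 CPM. GR3 went from 206 and 190 to 79.8 and 72.5 CPM. No drug-treated library reached a vehicle library of its population. ITGB5 fell by 2.18 ± 0.20 (adjusted p = 1.54e-06) and 2.09 ± 0.20 (adjusted p = 2.09e-06) in parental cells, by 2.21 ± 0.20 in GR2 (adjusted p = 2.78e-07) and by 1.37 ± 0.20 in GR3 (adjusted p = 0.000215). In gefitinib-tolerant cells it went from 191 and 228 to 144 and 133 CPM, and in WZ4002-tolerant cells from 188 and 205 to 122 and 131 CPM. These smaller falls, by 0.59 ± 0.20 (adjusted p = 0.0354) and 0.63 ± 0.20 (adjusted p = 0.023), were lost when any 1 of their 4 libraries was left out (adjusted p 0.0649 to 0.202 and 0.0608 to 0.108).

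ITGB8, the beta-8 chain of the TGF-beta-releasing receptor, rose in every population. It measured 8.84 and 16.1 CPM with vehicle in parental cells, 45.5 and 48.1 CPM with gefitinib, and 47.9 and 31.7 CPM with WZ4002. GR2 went from 6.76 and 6.92 to 35.4 and 29.3 CPM, and GR3 from 8.43 and 13.4 to 25.8 and 26.8 CPM. Every drug-treated library lay above both vehicle libraries of its population. On the log2 scale ITGB8 rose by 1.88 ± 0.26 (gefitinib, adjusted p = 5.68e-05) and 1.62 ± 0.26 (WZ4002, adjusted p = 0.000172) in parental cells, and by 2.08 ± 0.26 in GR2 (adjusted p = 9.25e-06). In GR3 it rose by 1.23 ± 0.26 (adjusted p = 0.00396), a call lost without vehicle replicate 1 (0.92, adjusted p = 0.0567). Gefitinib-tolerant cells went from 29.1 and 35.6 to 94.2 and 70.3 CPM, a rise by 1.31 ± 0.26 (adjusted p = 0.00252). WZ4002-tolerant cells went from 30.04 and 32.7 to 82.5 and 58.9 CPM, a rise by 1.13 ± 0.26 (adjusted p = 0.00498) that missed the threshold without vehicle replicate 1 (1.07, adjusted p = 0.0559) or WZ4002 replicate 1 (0.89, adjusted p = 0.0605). ITGB8-AS1, an RNA named as antisense to ITGB8, moved alongside, from 0.91 and 1.5 CPM with vehicle to 5.75 and 5.66 CPM with gefitinib in parental cells. The library kit marks strand, but whether counting used strand is not given in the sources used here, so reads of this pair may not be separable. ITGB8-AS1 was singled out after its values had been seen.

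ITGB6, the epithelial beta-6 chain that also releases TGF-beta, was the 1 subunit called in opposite directions. In GR3 it went from 58.1 and 53.2 CPM with vehicle to 21.0 and 11.4 CPM with WZ4002, a fall by 1.78 ± 0.32 (adjusted p = 0.00136). In GR2 it went from 54.2 and 58.5 to 98.5 and 105 CPM, a rise by 0.84 ± 0.32 (adjusted p = 0.0373). The vehicle levels of these lines overlapped and their WZ4002 levels did not. The fall in GR3 was called under every alternative and with any 1 of its 4 libraries left out, whereas the rise in GR2 was lost without any 1 of its 4 libraries (adjusted p 0.0887 to 0.136) and with the term for column order (0.13, adjusted p = 0.816). Parental cells held 77.5 and 71.8 CPM with vehicle, 107 and 88.7 CPM with gefitinib (0.38, -0.31 to 1.07), and 104 and 41.9 CPM with WZ4002 (-0.17, -0.86 to 0.52). Without WZ4002 replicate 1 the last value was called, at -0.82 (adjusted p = 0.0338). Tolerant cells held the highest levels, 231 and 275 against 316 and 255 CPM with gefitinib (0.17, -0.52 to 0.86) and 160 and 261 against 345 and 334 CPM with WZ4002 (0.73, 0.04 to 1.42). The last difference missed the threshold (adjusted p = 0.097) and passed it without vehicle replicate 2 (1.08, adjusted p = 0.0483).

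ITGB3, the beta-3 chain best known from platelets and endothelium, was scarce, with a median of 2.42 CPM over the 22 libraries. It measured 2.85 and 5.05 CPM with vehicle in parental cells, 12.9 and 8.02 CPM with gefitinib, and 9.89 and 1.35 CPM with WZ4002. Its highest group mean was in GR2 with WZ4002, from libraries at 12.9 and 38.5 CPM, against 7.93 and 6.89 CPM with vehicle. Its levels in GR3 were at most 0.68 CPM in all 4 libraries. The log2 differences ran from -0.15 (GR3) to 1.48 (GR2, 95% interval 0.06 to 2.89, adjusted p = 0.071), with a standard error of 0.67, and none passed the test. The GR2 difference passed it without WZ4002 replicate 1 (2.23, adjusted p = 0.0274) and with limma-voom (1.62, adjusted p = 0.0431), and the parental gefitinib difference of 1.21 passed it with the term for column order (adjusted p = 0.039).

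**Figure D2:**
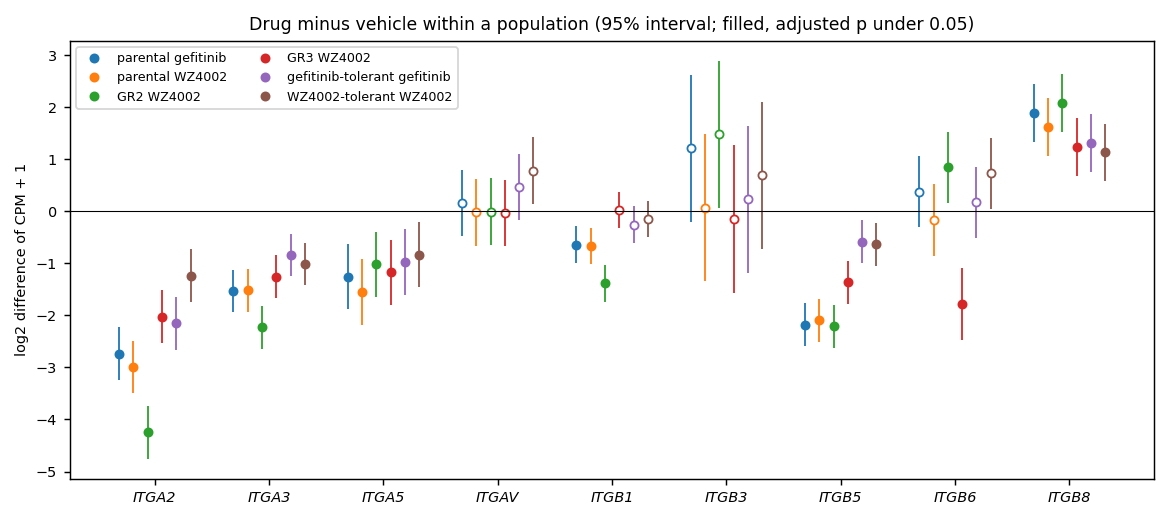
Drug minus vehicle on the log2(CPM + 1) scale for each subunit in the 6 drug comparisons, with 95% intervals; filled points had an adjusted p under 0.05. ITGA2 spans -4.25 (GR2) to -1.24 (WZ4002-tolerant), ITGB8 is above 0 throughout, and ITGB6 is at -1.78 in GR3 and 0.84 in GR2.

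The 2 drugs could be compared at the same labelled dose and time in parental cells. Gefitinib is a quinazoline and WZ4002 a pyrimidine with an acrylamide group that bonds to a cysteine of EGFR. WZ4002 minus gefitinib gave no called subunit among 9 and no called gene among 15485 (0%) with limma, 0 also with limma-voom on estimated reads, and 525 genes at an unadjusted p under 0.05, none of them a subunit. The difference was -0.25 for ITGA2 (95% interval -0.76 to 0.25), 0.01 for ITGA3 (-0.39 to 0.42), -0.30 for ITGA5 (-0.92 to 0.33) and -0.19 for ITGAV (-0.82 to 0.45). Among beta chains it was -0.03 for ITGB1 (-0.38 to 0.33), 0.09 for ITGB5 (-0.33 to 0.50) and -0.26 for ITGB8 (-0.81 to 0.30). The intervals were wider for ITGB6 (-0.55, -1.24 to 0.14) and ITGB3 (-1.14, -2.56 to 0.27), which stood low in WZ4002 replicate 2. Without WZ4002 replicate 1, ITGB6 was called lower with WZ4002 than with gefitinib (-1.20, adjusted p = 0.0429). These intervals leave room for differences of that size and do not show that the drugs act alike. The gefitinib libraries stood in runs 1 and 2 of the columns and the WZ4002 libraries in runs 2 and 3. With the term for column order the count of called genes was also 0. The WZ4002 pair differed more, with a mean chi-square of 65.9 per gene against 20.5 for the gefitinib pair. The 2 parental drug comparisons share their vehicle libraries.

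The size of the response differed between populations for 5 of the subunits. Within GR2, drug and run of columns cannot be told apart, so differences with GR2 may include the run. ITGA2 fell further in GR2 than in GR3, by 2.22 ± 0.34 on the log2 scale (adjusted p = 0.000604), and so did ITGA3 (0.98 ± 0.27, adjusted p = 0.0251). ITGB1 fell in GR2 but not in GR3 (0.02), a difference of 1.41 ± 0.24 (adjusted p = 0.0011). For ITGB6 the response in GR3 minus that in GR2 was -2.62 ± 0.46 (adjusted p = 0.00158). These 4 subunits were called, beside 13.6% of all genes, and the differences of ITGA2, ITGB1 and ITGB6 were called under every alternative run, whereas that of ITGA3 was lost in 4 of the 8 fits without 1 library, namely GR3 WZ4002 replicate 1, GR2 WZ4002 replicate 2 or either GR2 vehicle library (adjusted p 0.0741 to 0.0874). It was also lost with the term for column order (adjusted p = 0.122) and was 0.56 without GR3 vehicle replicate 1 (adjusted p = 0.0485). Against parental cells, 1 subunit responded differently in GR2 (6.79% of all genes), ITGA2 at -1.26 ± 0.34 (adjusted p = 0.0363), a call lost in each of the 8 fits without 1 of the libraries concerned (adjusted p 0.0589 to 0.144), with limma-voom (adjusted p = 0.0573) and with the term for column order (adjusted p = 0.285). None was called for GR3 minus parental with limma (1.29% of all genes), and limma-voom also called 0. At an unadjusted p under 0.05 there were 4 subunits, beside 2537 of the 15485 genes tested. They were ITGA2 at 0.97, ITGB1 at 0.69, ITGB5 at 0.72 and ITGB6 at -1.61. Without parental WZ4002 replicate 2, which stood low for ITGB6, its difference was -2.26 (adjusted p = 0.0083) and that of ITGB5 1.10 (adjusted p = 0.0363). Without parental WZ4002 replicate 1, that of ITGB1 was 0.90 (adjusted p = 0.046). The same pair of libraries decided calls of GR2 minus parental: ITGB6 was called at 1.66 without replicate 1 (adjusted p = 0.013) and ITGB1 at -0.93 without replicate 2 (adjusted p = 0.0344).

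Tolerant cells lost less ITGB5 than parental cells did. The response to gefitinib differed by 1.59 ± 0.28 (adjusted p = 0.00775) in gefitinib-tolerant minus parental cells, where ITGB5 was the 1 subunit called beside 2% of all genes. The response to WZ4002 differed by 1.46 ± 0.28 (adjusted p = 0.00873) in WZ4002-tolerant minus parental cells, where ITGB5 and ITGA2 (1.75 ± 0.34, adjusted p = 0.00951) were called beside 4.49% of all genes. Both ITGB5 calls were narrowly lost without parental vehicle replicate 1 (1.40 and 1.27, both adjusted p = 0.051), and that of ITGA2 without WZ4002-tolerant WZ4002 replicate 2 (1.64, adjusted p = 0.0547). These 2 comparisons share the parental vehicle libraries.

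Without drug, the tolerant lines carried more transcript of 5 subunits than parental cells. In gefitinib-tolerant cells 5 of 9 were called, all higher, beside 19% of all genes called and 9.39% called higher: ITGB6 by 1.74 ± 0.32 (adjusted p = 0.00174), ITGA2 by 1.54 ± 0.24 (adjusted p = 0.000448), ITGAV by 1.53 ± 0.30 (adjusted p = 0.00242), ITGB8 by 1.36 ± 0.26 (adjusted p = 0.00219) and ITGB1 by 1.18 ± 0.17 (adjusted p = 0.000208). In WZ4002-tolerant cells 5 were also called, all higher, beside 18.4% of all genes called and 8.72% called higher, and they were ITGB6 (1.44 ± 0.32, adjusted p = 0.00616), ITGA2 (1.40 ± 0.24, adjusted p = 0.00102), ITGAV (1.38 ± 0.30, adjusted p = 0.00513), ITGB8 (1.32 ± 0.26, adjusted p = 0.00286) and ITGB1 (1.05 ± 0.17, adjusted p = 0.000607). No tolerant vehicle library overlapped the parental vehicle libraries for any of these 5 genes. ITGA3 differed by 0.09 (-0.31 to 0.50) and 0.07 (-0.33 to 0.48), ITGA5 by 0.82 (0.19 to 1.45) and 0.76 (0.13 to 1.39), and ITGB5 by -0.32 (-0.73 to 0.10) and -0.41 (-0.82 to 0.01), none of them called. ITGB3 was not called either, at -1.30 (-2.71 to 0.12) in gefitinib-tolerant and -0.995 (-2.41 to 0.42) in WZ4002-tolerant cells; its gefitinib-tolerant libraries (0.30 and 1.96 CPM) lay below the parental ones, and the WZ4002-tolerant libraries (0.36 and 3.31 CPM) overlapped them. ITGA5 was called in both lines with the term for column order (adjusted p = 0.0105 and 0.0163) and in gefitinib-tolerant cells with limma-voom (adjusted p = 0.0434). Without WZ4002-tolerant vehicle replicate 2, ITGAV (0.93, adjusted p = 0.0885) and ITGB6 (1.09, adjusted p = 0.0888) were not called in WZ4002-tolerant cells, and without parental vehicle replicate 1 neither was ITGB8 (0.92, adjusted p = 0.0526). Both comparisons used the same parental libraries.

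With vehicle, GR2 libraries held more ITGA2 and ITGB1 than parental libraries, and GR3 libraries held less ITGA2, ITGA3, ITGB1 and ITGB3 than GR2 libraries. Both GR2 vehicle libraries stood in run 3 of the columns, and the parental and GR3 vehicle libraries stood in runs 1 and 2. Within these libraries a difference of GR2 from either line cannot be told apart from a difference between runs. In GR2, 2 subunits were called against parental cells, both higher, beside 16.7% of all genes called and 8.98% called higher: ITGA2 by 1.31 ± 0.24 (adjusted p = 0.00178) and ITGB1 by 0.66 ± 0.17 (adjusted p = 0.0141), the latter lost without parental vehicle replicate 2, GR2 vehicle replicate 1 or GR2 vehicle replicate 2 (adjusted p 0.0717 to 0.144) and at 1.02 with the term for column order. ITGB8 in GR2 vehicle against parental vehicle was -0.73 (adjusted p = 0.0693), and -1.12 without parental vehicle replicate 1 (adjusted p = 0.0222). In GR3, 0 were called with limma and 0 with limma-voom, beside 20.8% of all genes with limma. At an unadjusted p under 0.05 there were 2 subunits, beside 5089 of the 15485 genes tested. They were ITGA3 at -0.53 (adjusted p = 0.0591) and ITGB3 at -1.57 (adjusted p = 0.112). Without GR3 vehicle replicate 2, ITGA3 was called at -0.95 (adjusted p = 0.000513). Directly compared, GR3 was lower than GR2 in 4 subunits, beside 33.1% of all genes called and 17.5% called lower: ITGA2 (-1.63 ± 0.24, adjusted p = 9.32e-05), ITGA3 (-0.96 ± 0.19, adjusted p = 0.0012), ITGB1 (-0.94 ± 0.17, adjusted p = 0.000483) and ITGB3 (-2.37 ± 0.67, adjusted p = 0.0126). Without GR3 vehicle replicate 1 the ITGA3 value was -0.54 (adjusted p = 0.0111). ITGB3 was not called without GR3 vehicle replicate 2 or either GR2 vehicle library (adjusted p 0.0513 to 0.0732), and was at -3.62 with the term for column order. Against the mean of both tolerant lines, GR3 was lower in 6 subunits, beside 33.1% of all genes called and 16.3% called lower: ITGB6 (-2.01), ITGA2 (-1.79), ITGB8 (-1.49), ITGB1 (-1.39), ITGAV (-1.01) and ITGA3 (-0.61). Without GR3 vehicle replicate 1 the last 2 were not called (-0.92, adjusted p = 0.0529, and -0.19, adjusted p = 0.281), and without GR3 vehicle replicate 2 ITGA3 was at -1.03.

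**Figure D3:**
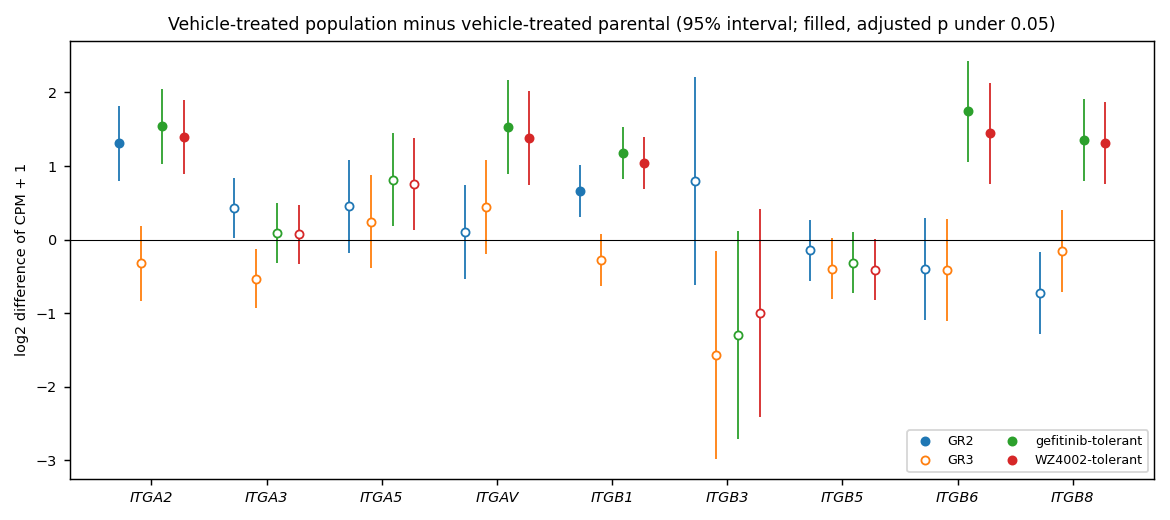
Vehicle-treated derivative minus vehicle-treated parental cells on the log2(CPM + 1) scale, with 95% intervals; filled points had an adjusted p under 0.05. ITGAV, ITGB6 and ITGB8 are filled in the tolerant lines alone, and ITGB6 reaches 1.74 in gefitinib-tolerant cells.

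The shares of beta-3, beta-5, beta-6 and beta-8, chains that pair with alpha-v, were compared with each other. Levels were divided by exon length so that different genes could be compared, which is approximate because exon lengths came from GENCODE 29 on GRCh38 and the files used hg19. ITGB5 made up 79.0% and 74.1% of the summed CPM per kb of ITGB3, ITGB5, ITGB6 and ITGB8 in parental vehicle, and 32.1% and 30.9% with gefitinib. ITGB6 made up 50.5% and 50.4% with gefitinib, up from 19.2% and 21.8%, although its own level was not called. Among these 4 chains, the largest share was that of ITGB5 with vehicle and that of ITGB6 with gefitinib. ITGB1, which pairs with alpha-v and with many other alpha chains, was not part of the sum, and its CPM per kb was 0.703 to 2.30 times that sum over the 22 libraries. ITGB8 went from 1.11% and 2.48% to 10.9% and 13.9%. Parental WZ4002 replicate 1 resembled the gefitinib libraries with 26.3% ITGB5, whereas replicate 2 kept 58.5%. In GR3 ITGB5 remained the largest share with WZ4002, at 71.2% and 75.3% against 77.8% and 77.0% with vehicle, and ITGB6 went from 20.4% and 20.2% to 17.4% and 11.03%. In GR2 ITGB3 reached 7.24% and 19.6% with WZ4002. Tolerant cells had nearly as much or more ITGB6 than ITGB5 already with vehicle, at 51.3% and 50.9% ITGB6 in gefitinib-tolerant and 42.5% and 52.1% in WZ4002-tolerant cells. With WZ4002 the latter reached 66.0% in both libraries. The ratio of ITGB5 to ITGB8 per kb was 71.0 and 29.9 in parental vehicle and between 2.04 and 5.22 in the 4 drug-treated parental libraries. These shares are descriptions of transcripts and were not tested.

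**Figure D4:**
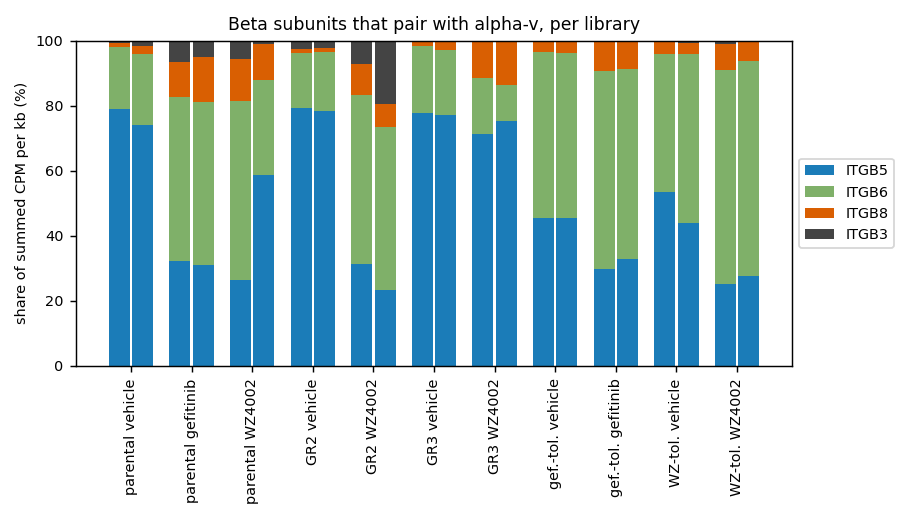
Share (%) of the summed CPM per kb taken by ITGB5, ITGB6, ITGB8 and ITGB3 in each of 22 libraries, with the 2 libraries of a group side by side. ITGB5 takes 79.0% and 74.1% in parental vehicle and 32.1% and 30.9% with gefitinib, while in GR3 it takes 71.2% and 75.3% with WZ4002.

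Over all 11 groups, the mean ITGA2 level was lowest in parental cells with WZ4002 (20.3 CPM) and highest in gefitinib-tolerant cells with vehicle (492 CPM). The 3 highest groups, GR2 vehicle, WZ4002-tolerant vehicle and gefitinib-tolerant vehicle, overlapped as neighbours in that order. ITGAV ranked the 4 tolerant groups highest (means 123 to 204 CPM) and the 7 others between 44.3 and 60.7 CPM, and the same 4 groups were highest for ITGB1 (439 to 532 CPM) and ITGB6 (211 to 340 CPM). For ITGB3, 8 of the 10 neighbouring pairs of groups overlapped. Over the 11 group means, ITGA3 and ITGB5 had a Pearson r of 0.95, ITGA2 and ITGA5 of 0.94, and ITGB5 and ITGB8 of -0.51. These points share libraries and drug treatment. The genes with the most similar pattern (highest r over the 11 group means) were PLEK2, ADAP1 and THOC5 for ITGA2 (0.99, 0.99 and 0.99), PRNP and MIS18A for ITGA3 (0.99 and 0.98), and NTMT1, E2F1 and MFHAS1 for ITGA5 (0.97 each). They were NEXN, CGB8 and IL32 for ITGAV (0.99, 0.98 and 0.98), LAMA3, ITGB1P1 and DSE for ITGB1 (0.99 each), and RPL39, RDH10 and CTSL for ITGB3 (0.98, 0.98 and 0.97). They were RFC4, POGLUT3 and CD320 for ITGB5 (0.99 each), LINC03033, NAV2 and FAAP100 for ITGB6 (0.94, 0.92 and 0.92), and WNT10A, BMP1 and TRPM4 for ITGB8 (0.98, 0.98 and 0.98).

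Other genes of integrin adhesion were read from 4 lists. Of 7 other integrin subunits tested, 1 rose and 3 fell in parental cells with gefitinib (median log2 difference 0.02, beside 0.04 over all genes, of which 45.3% were called). ITGA6, the laminin-binding alpha-6 chain, fell in all 6 drug comparisons, from 547 and 354 to 13.1 and 17.7 CPM in parental cells with gefitinib (-4.77 ± 0.35, adjusted p = 3.6e-07). Its partner ITGB4, the hemidesmosome beta-4 chain, fell by 3.06 ± 0.45 in GR2 (adjusted p = 3.88e-05) and by 1.20 ± 0.45 in parental cells with gefitinib (adjusted p = 0.0396), the latter lost with no gene filtered out (adjusted p = 0.0548) and without vehicle replicate 1 (-0.92, adjusted p = 0.227) or gefitinib replicate 2 (-0.72, adjusted p = 0.314). In GR3 minus GR2, 3 of the 7 differed, beside 13.6% of all genes, all with weaker falls in GR3: ITGA6 (2.96), ITGB4 (2.70) and ITGA1 (2.54), and ITGB4 was not called without GR2 WZ4002 replicate 2 (2.12, adjusted p = 0.0637).

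Of 30 adhesion adaptors and kinases tested, 4 rose and 8 fell in parental cells with gefitinib (median -0.07, beside 0.04 over all genes, of which 45.3% were called). In GR2 5 rose and 11 fell (median -0.23, beside 0.01 over all genes, with 55.7% called), and in GR3 8 rose and 2 fell (median 0.20, beside 0.02, with 22% called). FERMT1, an epithelial kindlin that helps to activate integrins, fell in all 6 comparisons, from 96.9 and 83.0 to 14.5 and 15.9 CPM in parental cells with gefitinib (-2.48 ± 0.15, adjusted p = 5.44e-08) and with -4.16 ± 0.15 in GR2 (adjusted p = 8.06e-11). NEDD9, a docking protein of focal adhesions, rose from 38.3 and 39.9 to 149 and 137 CPM with gefitinib (1.85 ± 0.28, adjusted p = 0.000103). In GR3 minus GR2, 8 of the 30 differed, beside 13.6% of all genes, all positive, among them FERMT1 at 2.54 and PXN, which encodes paxillin, at 1.44. Of 16 integrin regulators tested, 7 rose and 2 fell in parental cells with gefitinib (median 0.23, beside 0.04 over all genes, of which 23.5% were called higher and 21.8% lower), and CD9, a tetraspanin that associates with beta-1 integrins, rose in all 6 comparisons (1.24 ± 0.15 with gefitinib in parental cells, adjusted p = 1.46e-05). The CD9 rise in gefitinib-tolerant cells (0.72) was not called without vehicle replicate 1 (0.63, adjusted p = 0.0517) or gefitinib replicate 2 (0.62, adjusted p = 0.0526).

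Of 21 matrix ligands tested, 10 were higher and none lower in gefitinib-tolerant than in parental vehicle (median 0.73, beside 0.01 over all genes, of which 9.39% were called higher and 19% in either direction), and 9 were higher and none lower in WZ4002-tolerant cells (median 0.67, beside 0.01, with 8.72% called higher and 18.4% in either direction). FN1, fibronectin, measured 18.5 and 21.98 CPM in parental vehicle, 1055 and 2362 CPM in gefitinib-tolerant vehicle, and 706 and 2044 CPM in WZ4002-tolerant vehicle. It was thus far higher in all 4 tolerant libraries, by 6.22 ± 0.46 (adjusted p = 1.41e-06) and 5.83 ± 0.46 (adjusted p = 3.12e-06). THBS1, thrombospondin-1, was higher by 4.21 ± 0.40 (adjusted p = 7.19e-06) and 3.82 ± 0.40 (adjusted p = 1.68e-05). With gefitinib in parental cells 5 ligands rose and 2 fell (median 0.09, beside 0.04 over all genes, of which 45.3% were called), among them FN1 by 1.79 ± 0.46 (adjusted p = 0.00488) and SPP1, which encodes osteopontin, by 2.19 ± 0.49 (adjusted p = 0.00227). EDIL3, an RGD protein of the matrix, rose in all 6 comparisons, by 2.62 ± 0.33 (adjusted p = 2.29e-05) in parental cells with gefitinib, a value of 4.13 with a pseudocount of 0.1 and 4.51 with limma-voom. Its calls in the tolerant lines were lost without gefitinib-tolerant vehicle replicate 1 (1.07, adjusted p = 0.0945), gefitinib-tolerant gefitinib replicate 2 (1.06, adjusted p = 0.0943) or WZ4002-tolerant vehicle replicate 1 (1.23, adjusted p = 0.0701).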

How the data were processed

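The deposited table gives CPM for 17165 genes in 22 libraries, computed by the authors from reads aligned with STAR and counted with HTSeq on hg19, as the tools and build stand in the submitters' processing notes; versions are not given in the sources used here. Values have 2 decimals, none is 0, and whether counting used strand is not given in the sources used here. Ensembl identifiers were matched to symbols for 16779 genes, and 386 kept their identifier alone. Groups came from the labels. The values were transformed to log2(CPM + 1), with a pseudocount of 1, after a filter of at least 1 CPM in at least 2 libraries, which left 15485 genes and removed 1680. limma 3.58.1 in R 4.3.3 fitted 11 group means to all 22 libraries, with an empirical Bayes trend, and tested 18 contrasts (two-sided, Benjamini-Hochberg over all genes within a contrast, calls at an adjusted p under 0.05). Errors of differences are standard errors and intervals are 95%; a fold on this scale understates the change of genes with low values. The estimated depth of 23.6 to 49.6 M reads bounds the precision of scarce genes such as ITGB3.

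The fit was tested on simulated data. The members and lists were chosen with earlier results of these data known. Named genes were the 9 subunits, DUSP6, ITGA6, ITGB4, up to 4 genes per list with the lowest p in a contrast described, and the 3 genes closest in pattern to each subunit, for which genes with only an identifier were skipped, a step the rule does not state. For ITGA3, 1 of these 3 genes is not reported here.

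Each contrast was refitted without each library in turn, with the replicate number as a block, with CPM rescaled by median of ratios, with every gene kept and with 0.1 added in place of 1. After seeing the data, 2 were added: limma-voom on reads estimated from the CPM step, and a term for the 3 runs of columns in the table, which no label calls a batch and in which both GR2 vehicle libraries are in the third run. Exon lengths came from GENCODE 29.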

Additional observations from a re-analysis of the deposited data

Results flagged for a closer look

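The response to drug differed between 2 populations by a test of the difference itself (limma, an interaction contrast) for 8 values, each given on the log2(CPM + 1) scale. Between GR3 and GR2 with WZ4002, the response in GR3 minus that in GR2 was 2.22 for ITGA2 (adjusted p = 0.000604), 0.98 for ITGA3 (adjusted p = 0.0251), 1.41 for ITGB1 (adjusted p = 0.0011) and -2.62 for ITGB6 (adjusted p = 0.00158). For ITGA2 the response in GR2 minus that in parental cells was -1.26 (adjusted p = 0.0363). For ITGB5 the response to gefitinib in gefitinib-tolerant minus parental cells was 1.59 (adjusted p = 0.00775), and the response to WZ4002 in WZ4002-tolerant minus parental cells was 1.46 (adjusted p = 0.00873). In the last pair of populations ITGA2 differed by 1.75 (adjusted p = 0.00951). Groups of 2 libraries were too small to look for a single library apart from the rest.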

How the results depend on the processing

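With 2 libraries a group, many values or calls changed when 1 library was left out. Such a fit leaves 1 library in a group and has less power, so a call can be lost with its value little changed. Of 162 comparisons of a subunit, 65 were called, beside 0% (parental WZ4002 against gefitinib) to 55.7% (GR2 with WZ4002) of all genes per contrast. Direction and side of the threshold were kept in 161 with a pseudocount of 0.1, 161 without the filter, 161 with median-of-ratios scaling, 157 with limma-voom and 130 with the term for column order. Of 846 values with 1 library left out, 716 kept both, 56 lost a call, 16 gained one and 58 changed sign uncalled; no called value changed sign under any of these. The labels give replicate numbers without saying what a number shares, and the numbers were not taken as pairs because not every correlation was over 0.1. Over 55 pairs of groups, same-numbered deviations correlated at -0.46 to 0.63 (median 0.051), with 20 over 0.1, all 20 among the 28 pairs of the 8 groups whose replicates 1 and 2 stood in the first and second run of columns. With the replicate block 162 of 162 subunit comparisons kept direction and call, 7277 genes were called for parental gefitinib, and 344 in place of 200 for the WZ4002 response of GR3 minus parental.

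Sign changes of drug effects, all in uncalled values, follow on the log2 scale, with the range over fits without 1 library. Parental WZ4002: ITGAV was 0.24 with the column term and -0.53 to 0.48; ITGB3 was -0.034 with a pseudocount of 0.1, -0.23 with limma-voom and -1.04 to 1.17; ITGB6 was 0.20 with the column term and -0.82 to 0.48. ITGAV ran from -0.13 to 0.12 in GR2 and from -0.17 to 0.11 in GR3, where ITGB1 ran from -0.038 to 0.088. ITGB3 ran from -0.36 to 0.82 in gefitinib-tolerant and from -0.14 to 1.52 in WZ4002-tolerant cells, where ITGB1 was 0.039 with the column term and ran from -0.30 to 0.0053. For WZ4002 against gefitinib, the column term gave -0.067 for ITGA3, 0.080 for ITGAV, 0.16 for ITGB1 and -0.063 for ITGB5. The ranges there were -0.12 to 0.15 for ITGA3, -0.89 to 0.30 for ITGA5, -0.69 to 0.32 for ITGAV, -0.24 to 0.19 for ITGB1, -0.28 to 0.46 for ITGB5, -1.20 to 0.10 for ITGB6 and -0.55 to 0.036 for ITGB8. In the other comparisons the column term changed the sign of ITGB6 with vehicle in GR2 against parental (0.31), of ITGAV (-0.29) and ITGB5 (0.11) in GR3 against GR2, and of the response differences of ITGA5 (0.44) and ITGAV (0.61) in GR3 minus GR2. In GR2 minus parental it changed that of ITGA5 (-0.29), ITGAV (-0.88), ITGB3 (-0.32), ITGB5 (0.40), ITGB6 (-0.070) and ITGB8 (-0.18). ITGAV in GR3 minus parental was 0.0030 with median-of-ratios scaling and 0.011 with limma-voom. Sign changes without 1 library in these other comparisons are given only in the count above.

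Genes called over fits without 1 library numbered 4525 to 5898 for parental gefitinib (7017 with all libraries), 4840 to 6409 for parental WZ4002 (7348), 6596 to 7255 in GR2 (8618), 1729 to 3688 in GR3 (3406), 976 to 4233 in gefitinib-tolerant (4446) and 1401 to 4184 in WZ4002-tolerant cells (5049), and 0 to 343 for WZ4002 against gefitinib (0). With vehicle they numbered 769 to 1404 for GR2 (2591; 1449 with the column term), 1827 to 3168 for GR3 (3228), 2995 to 4732 for GR3 against GR2 (5132), 1203 to 2086 for gefitinib-tolerant (2947), 1300 to 1677 for WZ4002-tolerant (2856) and 2979 to 5116 for GR3 against both tolerant lines (5132). For differences in response they numbered 328 to 1266 for GR2 minus parental (1051; 338 with the column term), 46 to 1059 for GR3 minus parental (200; 124 with a pseudocount of 0.1, 84 with limma-voom), 1005 to 2888 for GR3 minus GR2 (2103), 90 to 254 for gefitinib-tolerant minus parental (310; 167 with limma-voom, 873 with the column term) and 174 to 1076 for WZ4002-tolerant minus parental (696; 1479 with the column term).

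Subunits called without 1 library numbered 5 to 6 for parental gefitinib, 5 to 7 for parental WZ4002, 6 to 7 in GR2, 5 to 6 in GR3, 2 to 3 in gefitinib-tolerant and 2 to 5 in WZ4002-tolerant cells, and 0 to 1 for WZ4002 against gefitinib. With vehicle they numbered 1 to 3 for GR2, 0 to 1 for GR3 (1 with the column term), 3 to 5 for GR3 against GR2, 5 to 5 for gefitinib-tolerant, 3 to 5 for WZ4002-tolerant and 4 to 6 for GR3 against both tolerant lines. For differences in response they numbered 0 to 1 for GR2 minus parental (0 with limma-voom), 0 to 2 for GR3 minus parental (1 with the column term), 3 to 5 for GR3 minus GR2, 0 to 1 for gefitinib-tolerant and 1 to 4 for WZ4002-tolerant minus parental. The causes were not tested.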
